A study of Mus musculus with 12 samples.

Results

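The 10 genes described here encode parts of the sarcomere, the contractile unit of heart and skeletal muscle, and were measured in mouse gonadal somatic cells with and without an intact Kdm3a gene. They are the myosin light chains Myl7, Myl1, Myl3 and Myl4, the troponins Tnni3, Tnni1 and Tnnt2, the cardiac actin Actc1, and the cardiac myosin heavy chains Myh6 and Myh7. They were picked from 18749 named genes on the array because of their measured values: Myl7, Tnni3, Myl1 and Myl3 stood out as low in mutants, and the other 6 were set beside them as well-known sarcomere genes. Probes were assigned through the accession that the array gives for each, and 17 of the 27479 named probes mapped to the 10 genes. Of these, 16 passed the filter on dim probes, which asks that at least 1 group have all its arrays well above background. The exception was a second probe of Myh6. Since the mutant values chose the genes, their differences between mutants and controls are given below as a description, with no test.

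In a sarcomere, thick filaments of myosin pull on thin filaments of actin, and each myosin heavy chain carries 1 essential and 1 regulatory light chain. Troponin I, troponin T and troponin C sit on the thin filament with tropomyosin and make contraction depend on calcium. Heart, fast skeletal and slow skeletal muscle use different genes for these parts, and embryonic muscle often mixes them, so a muscle cell is normally known by a whole set of such genes.

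The tissue was the gonad at embryonic day 11.5, when the gonad of either sex has not yet taken on an ovarian or testicular form. There were 3 mutant males, 3 control males, 3 mutant females and 3 control females. Mutants were homozygous for a mutant allele of Jmjd1a, whose current symbol is Kdm3a and which encodes a demethylase of lysine 9 of histone H3. Controls were heterozygous, so they too carried 1 mutant allele, and no group without the allele was used here. Every embryo also carried a transgene in which CD271, a surface protein, is tied to Nr5a1, a gene of gonadal somatic cells. Gonads were taken with their mesonephroi, and of about 200000 dissociated cells an embryo about 40000 were purified magnetically through CD271. The cells of a single embryo gave 1 sample, and each array held the amplified, Cy3-labelled RNA of 1 sample. Litters are not named in the labels.

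Between 58.0% and 65.2% of the spots of an array were well above background, and the arrays' 75th percentiles ran from 142.9 to 298.5 intensity units. On a log2 scale with each array's 75th percentile set to 0, Kdm3a itself lay at 0.70 to 1.04 in mutant males, against 2.70 to 3.03 in control males (limma adjusted p = 9.1e-05). It lay at 0.44 to 0.75 in mutant females, against 2.81 to 2.96 in control females (limma adjusted p = 4.3e-05). Another Kdm3a probe passed the background flag on 0 of 6 mutant arrays and on 6 of 6 control arrays. Whether these probes lie in the part that the mutation removes could not be read from the labels. All 9 listed genes of gonadal somatic cells, among them Nr5a1 and Wt1, were well above background on all 12 arrays, and 0 of 9 passed the test between genotypes in males or in females, with 0 in males and 1 in females at an unadjusted p below 0.05. Over all features, 11.9% had an unadjusted p below 0.05 in males and 10.4% in females, against which such counts are to be read. Of these gonadal genes 7 of 9 were higher in mutant males and 9 of 9 in mutant females, with median log2 differences of 0.18 and 0.27. Their summed level, in multiples of the 75th percentile, was 55.0 to 69.2 in mutant males, against 52.0 to 59.0 in control males. In females it was 64.4 to 85.7 in mutants, against 53.0 to 75.1 in controls, so the ranges overlapped in both sexes. The arrays lay on 3 slides. The first held mutant male 1 and the control males, the next the other mutant males and control females 1 and 2, and the last the mutant females and control female 3. Precision is limited by the number of arrays. Levels below are on that scale, differences are log2 differences of mutant minus control with the standard error of the fit, and n = 3 embryos a group. A gene with several probes is given by its brightest one unless a second probe is named.

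The promoters of 3 members are shown because they hold a CArG box, the site that serum response factor is known to bind in muscle genes, and because 2 of these genes were low in mutants and 1 was not. They are the 250 bases before the start given by RefSeq for GRCm38.p6, with the CArG box and the E-box CANNTG in capitals. The window of Myl7 is chr11:5898783-5899032 on the minus strand, that of Myl3 chr9:110763428-110763677 on the plus strand, and that of Actc1 chr2:114052876-114053125 on the minus strand.
Myl7: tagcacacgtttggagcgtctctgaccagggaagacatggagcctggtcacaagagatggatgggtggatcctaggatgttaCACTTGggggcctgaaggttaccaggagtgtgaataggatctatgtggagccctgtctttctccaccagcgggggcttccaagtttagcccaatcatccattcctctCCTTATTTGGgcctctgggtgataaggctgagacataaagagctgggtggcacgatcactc
Myl3: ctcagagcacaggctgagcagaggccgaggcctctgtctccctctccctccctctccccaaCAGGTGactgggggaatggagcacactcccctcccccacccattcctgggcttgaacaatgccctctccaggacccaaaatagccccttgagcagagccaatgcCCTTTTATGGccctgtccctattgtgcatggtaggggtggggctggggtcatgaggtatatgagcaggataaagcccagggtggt
Actc1: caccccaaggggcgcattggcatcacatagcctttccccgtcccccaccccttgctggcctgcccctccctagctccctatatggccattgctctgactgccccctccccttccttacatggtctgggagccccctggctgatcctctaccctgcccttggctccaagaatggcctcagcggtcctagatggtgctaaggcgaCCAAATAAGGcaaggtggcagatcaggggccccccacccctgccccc

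The first base of the CArG box stood at -61 from the start in Myl7, at -85 in Myl3 and at -47 in Actc1. RefSeq gave 13 windows for the 10 members, and the CArG box was found in these 3 of them, beside 1.47% of all 32851 windows of the same length. The E-box CANNTG, the site of myogenic and many other helix-loop-helix factors, was found in 11 of the 13 windows and in 66.2% of all windows. AGATAA, a form of the site of GATA factors, was found in 1 of the 13 windows, that of Tnnt2, and in 9.99% of all windows. Other forms of that site were not searched. AAGGTCA, a site of the nuclear receptor that Nr5a1 encodes, was found in 0 of the 13 windows and in 4.08% of all windows. The MEF2 box was found in 0 of the 13 windows and in 2.92% of all. TATAAA was found in 1 of the 13, that of Myl1, and in 12.4% of all. Both strands were searched, overlapping matches of different motifs were allowed, and a match is a run of letters and not a bound site. The CpG count of the windows was 4 for Myl7, 3 for Tnni3, 6 for Myl1 and 1 for Myl3, a median of 3.5. In the 9 windows of the other 6 members it ran from 0 to 23 with a median of 5, beside a median of 6 over all windows.

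The light chain and troponin I genes that defined the group gave the clearest values. Myl7 encodes the regulatory light chain of atrial heart muscle. It stood at 1.70, 1.34 and 1.37 in mutant males 1 to 3, against 4.64, 4.28 and 3.91 in control males 1 to 3. It stood at 1.09, 0.89 and 1.15 in mutant females, against 4.32, 4.01 and 3.59 in control females. Every mutant array was below every control array, with a gap far wider than the spread inside any group. The difference was -2.81 ± 0.22 in males, 7.01-fold lower in mutants, and -2.93 ± 0.22 in females, 7.63-fold lower. Of 19178 features, 6 had a more negative difference in males and 5 in females.

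The order of the Myl7 group means was control males, control females, mutant males and mutant females. Means were 1.47 ± 0.201 in mutant males, 4.28 ± 0.364 in control males, 1.04 ± 0.136 in mutant females and 3.97 ± 0.365 in control females (SD, n = 3). The control groups of the sexes overlapped, whereas all 3 mutant males lay above all 3 mutant females on this scale, though not in unscaled signal. The mutant difference in males minus that in females was 0.12 ± 0.31, smaller than its standard error. Myl7 remained detectable in mutants, well above background on all 6 of their arrays.

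Scaling to the 75th percentile of the array widened the spread of Myl7 among controls. Its unscaled signal was 664.2, 442.9 and 569.8 intensity units in mutant males, against 3565, 3300 and 3318 in control males. It was 636.4, 537.3 and 592.1 in mutant females, against 3759, 4032 and 3367 in control females. The SD among control males was 0.0622 on the unscaled log2 scale and 0.364 on the scaled one, and among control females it was 0.131 and 0.365. Mutant arrays were on average brighter than control arrays, by 0.19 in males and 0.27 in females for the log2 of the 75th percentile. Single arrays overlapped in both sexes, with control male 3 at 220.4 and mutant male 2 at 175.1, and control female 3 at 279.4 and mutant female 3 at 267.7. Leaving out the scaling moved every difference up by the average amounts. Without scaling, the Myl7 difference was -2.62 in males and -2.66 in females.

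**Figure D1:**
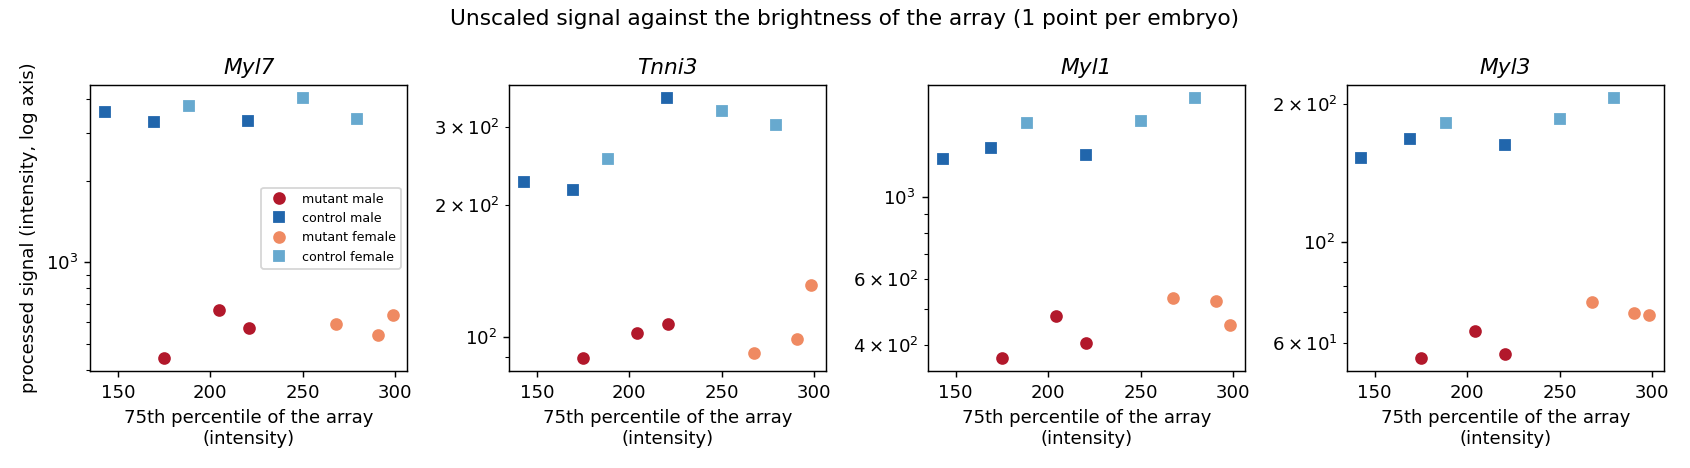
Unscaled processed signal (vertical axis, intensity, log scale) of Myl7, Tnni3, Myl1 and Myl3 against the 75th percentile of the same array (horizontal axis, intensity), 1 point per embryo; circles are mutants and squares are controls. Myl7 lay between 442.9 and 664.2 on the 6 mutant arrays and between 3300 and 4032 on the 6 control arrays, over arrays whose 75th percentile ran from 142.9 to 298.5.

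Myl1, the essential light chain of fast skeletal muscle, gave the next largest difference among the light chains. It stood at 1.22, 1.08 and 0.88 in mutant males, against 3.14, 3.00 and 2.55 in control males. It stood at 0.60, 0.85 and 1.00 in mutant females, against 3.06, 2.67 and 2.72 in control females. The groups were again apart in both sexes, by -1.84 ± 0.18 in males, 3.57-fold lower in mutants, and by -2.0 ± 0.18 in females, 4.0-fold lower. A second Myl1 probe, which the array assigns to another transcript accession, differed by -2.21 ± 0.21 in males and -2.08 ± 0.21 in females. On that dimmer probe, whose signal was 8.24 to 17.9 intensity units in mutants, the levels ran from -4.41 to -3.96 in mutant males and from -2.45 to -1.80 in control males. In females they ran from -4.48 to -4.02 in mutants and from -2.32 to -1.92 in controls, so both Myl1 probes separated the genotypes.

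Myl3 encodes an essential light chain of ventricular heart muscle and slow skeletal muscle. It stood at -1.68, -1.66 and -1.96 in mutant males, against 0.10, -0.01 and -0.44 in control males. It stood at -2.11, -2.06 and -1.86 in mutant females, against -0.05, -0.43 and -0.44 in control females. The groups were apart, with differences of -1.65 ± 0.17 in males, 3.13-fold lower in mutants, and -1.70 ± 0.17 in females, 3.26-fold lower. The second Myl3 probe did not show this. It was dim but well above background on all 12 arrays, at 10.3 to 14.7 intensity units, its groups overlapped in both sexes, and it differed by -0.31 ± 0.27 in males and -0.26 ± 0.27 in females.

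Tnni3 encodes cardiac troponin I, the inhibitory subunit of the adult heart. It stood at -1.01, -0.97 and -1.04 in mutant males, against 0.66, 0.35 and 0.67 in control males. It stood at -1.19, -1.56 and -1.54 in mutant females, against 0.43, 0.39 and 0.12 in control females. All mutant arrays lay below all control arrays, by -1.57 ± 0.14 in males, 2.96-fold lower, and by -1.74 ± 0.14 in females, 3.35-fold lower. The second Tnni3 probe differed by -1.61 ± 0.16 in males and -1.72 ± 0.16 in females, within 1 standard error of the first.

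The slides were a batch that partly followed the groups, so the differences were also taken within the slides that held both genotypes of a sex. In males this set mutant male 1 against the 3 control males, and in females the 3 mutant females against control female 3. Within slides, Myl7 differed by -2.58 in males and -2.55 in females, Myl1 by -1.67 in males and -1.90 in females, Myl3 by -1.57 in both, and Tnni3 by -1.56 in males and -1.55 in females. Every within-slide value kept the direction of the difference over all arrays. With another background correction, normexp, the differences of the dimmer genes shrank, to -1.17 in males and -1.21 in females for Tnni3 and to -1.03 in both sexes for Myl3.

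The other 6 members gave smaller differences, several of them with overlapping embryos. Tnni1 encodes slow skeletal troponin I, which is also the main troponin I of the embryonic heart. It stood at 2.4, 2.4 and 2.39 in mutant males, against 3.08, 2.84 and 3.12 in control males. It stood at 2.33, 2.69 and 2.49 in mutant females, against 2.71, 2.92 and 2.45 in control females. The groups were apart in males, where the difference was -0.62 ± 0.15, and overlapped in females, where it was -0.19 ± 0.15. Within slides it was -0.61 in males and 0.06 in females. The second Tnni1 probe gave -0.61 ± 0.14 in males and -0.12 ± 0.14 in females.

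Tnnt2 encodes cardiac troponin T, which ties the troponin complex to tropomyosin and is an early marker of heart muscle cells. It stood at -1.84, -2.69 and -2.63 in mutant males, against -1.70, -1.99 and -1.73 in control males, so mutant male 1 lay among the controls. It stood at -2.65, -2.33 and -2.40 in mutant females, against -2.07, -1.92 and -2.32 in control females, where the highest mutant all but met the lowest control. The differences were -0.58 ± 0.22 in males and -0.36 ± 0.22 in females, and within slides -0.03 in males and -0.14 in females.

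Myl4, the essential light chain of atrial and embryonic muscle, showed groups that overlapped in both sexes. It stood at -1.38, -1.02 and -1.45 in mutant males, against -0.84, -1.13 and -1.03 in control males. It stood at -1.82, -1.28 and -1.63 in mutant females, against -1.08, -1.35 and -1.66 in control females. The differences were -0.28 ± 0.19 in males and -0.21 ± 0.19 in females. Within slides the difference was -0.38 in males and 0.08 in females. Its second probe pointed the other way in males, at 0.11 ± 0.30, and gave -0.29 ± 0.30 in females.

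Actc1 encodes cardiac alpha actin, the main actin of the heart and of embryonic skeletal muscle, and is abundant wherever either is forming. It stood at -0.63, -1.54 and -1.22 in mutant males, against -1.54, -0.81 and -0.75 in control males. It stood at 0.13, -0.81 and -0.70 in mutant females, against -0.87, -0.75 and -1.30 in control females. The groups overlapped in both sexes, the difference was -0.10 ± 0.32 in males and 0.51 ± 0.32 in females, and within slides it was 0.40 in males and 0.84 in females. On its brightest probe and over all arrays, Actc1 was the only member that was higher in mutants of either sex.

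The cardiac myosin heavy chains, which form the motor of the thick filament, lay side by side on chromosome 14. Myh7, the beta chain of ventricle and slow skeletal muscle, stood at -0.01, -0.76 and -0.42 in mutant males, against 0.53, 0.08 and 0.40 in control males. It stood at -0.26, -0.15 and -0.24 in mutant females, against 0.01, 0.02 and 0.53 in control females. Its groups did not overlap in either sex, but the gaps were small, and the differences were -0.73 ± 0.21 in males and -0.40 ± 0.21 in females. Within slides they were -0.34 in males and -0.75 in females. The second Myh7 probe gave -0.65 ± 0.23 in males, where its groups overlapped, and -0.40 ± 0.23 in females.

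Myh6, the alpha cardiac heavy chain, was close to the background of the arrays. It stood at -3.83, -4.75 and -4.26 in mutant males, where it was well above background on 2 of 3 arrays, against -3.15, -3.81 and -3.16 in control males. It stood at -3.95, -4.10 and -4.04 in mutant females, against -4.08, -3.42 and -3.35 in control females, where 1 control lay among the mutants. In males the highest mutant all but met the lowest control. The differences were -0.90 ± 0.27 in males and -0.41 ± 0.27 in females, and with normexp correction the male difference was -0.08. Its second probe, well above background on 1 of 3 mutant males and on 2 of 3 arrays in each other group, did not pass the filter.

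**Figure D2:**
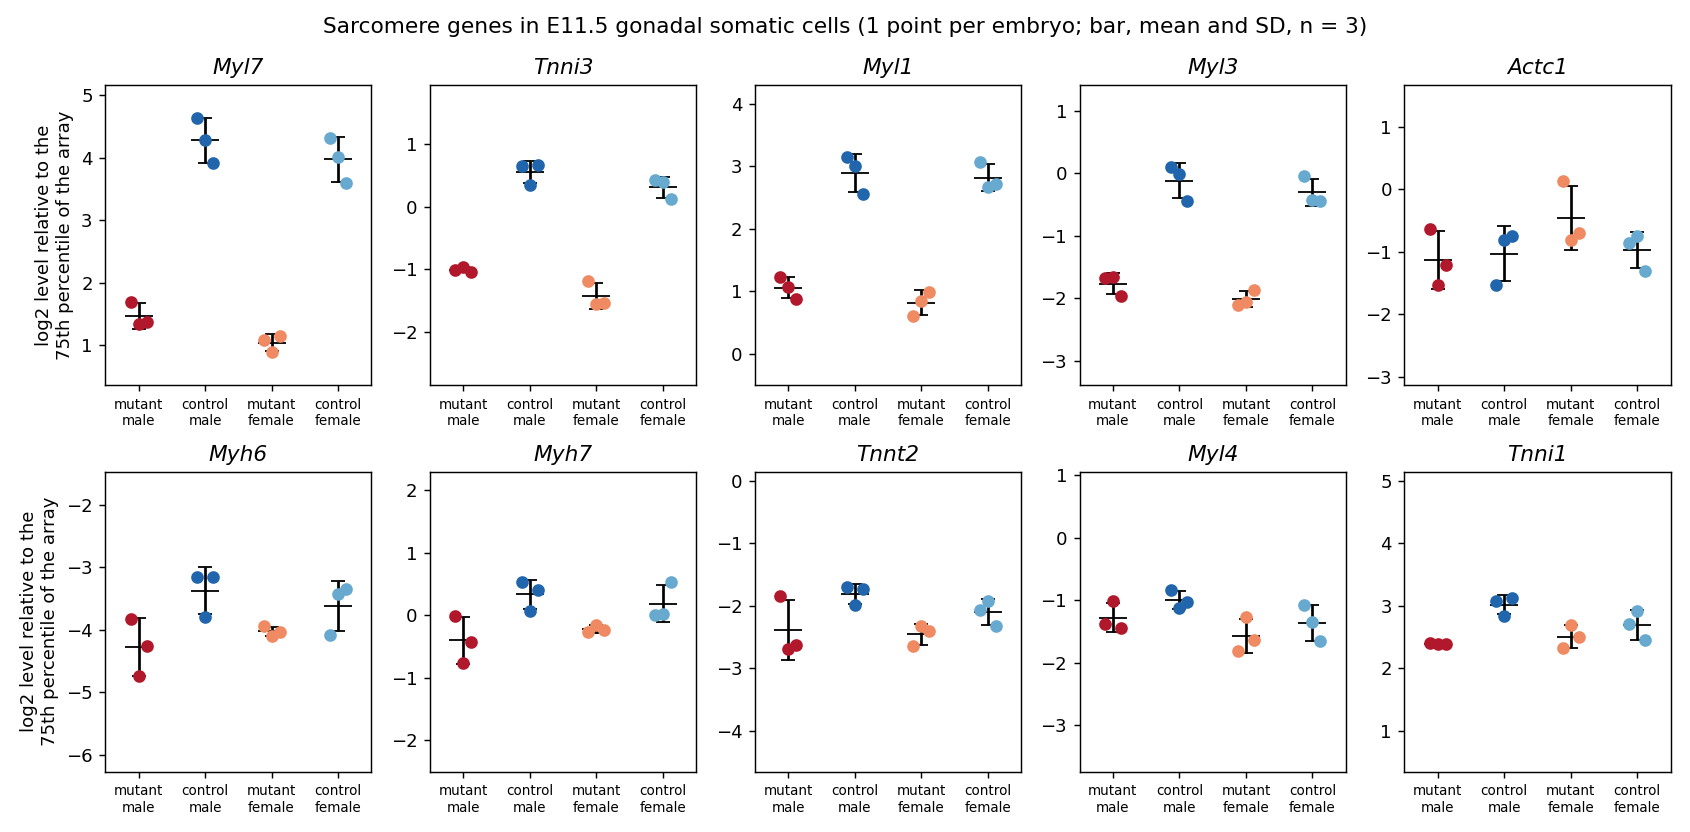
Level of each of the 10 sarcomere genes (vertical axis, log2 relative to the 75th percentile of the array) in mutant males, control males, mutant females and control females, 1 point per embryo with the mean and SD. Each vertical axis spans the same number of log2 units; Myl7, Tnni3, Myl1 and Myl3 show mutants far below controls in both sexes, whereas Actc1 and Myl4 show groups that overlap.

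Across the 10 members, all were lower in mutants in males and 9 in females, except that without scaling Actc1 in males (0.09) and Myl4 (0.06) and Tnni1 (0.15) in females were higher. Within slides the same genes were also higher, Actc1 in males by 0.40 and Myl4 and Tnni1 in females by 0.08 and 0.06. The median difference was -0.82 in males and -0.41 in females, beside medians of -0.05 in both sexes over all 19178 features. Myl7, Tnni3, Myl1 and Myl3 had medians of -1.74 in males and -1.87 in females, and the other 6 had -0.60 and -0.29. Mutants lay wholly below controls for 7 members in males and 6 in females, where 12% of all features did so in males and 7.35% in females. These counts include the 4 genes picked for being low, and of the other 6 members 3 lay so in males and 2 in females. Among the members, 4 of 10 had a limma adjusted p below 0.05 as lower in each sex, the same 4 genes, where 0.391% of all features were called lower in males and 0.349% in females. These 4 calls are what the choice of genes rested on, and nothing further is read from them. No member probe was saturated on any of the 12 arrays.

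**Figure D3:**
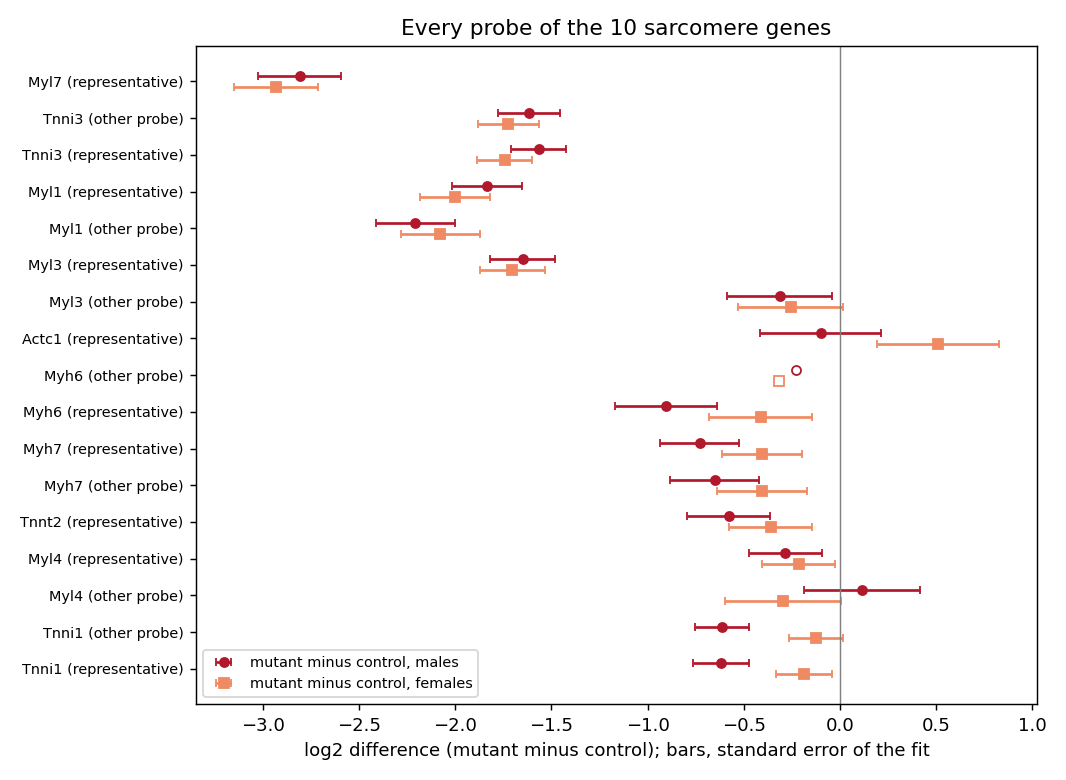
Difference of mutant minus control (horizontal axis, log2) for each of the 17 probes, with males as circles and females as squares, and bars for the standard error of the fit; open symbols mark the probe that did not pass the filter and has no fit. The probes of Myl7, Tnni3 and Myl1 lay at -1.57 or lower, whereas the second Myl3 probe lay at -0.31 in males and -0.26 in females.

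The contrast between the sexes, averaged over mutants and controls, was not used to choose the genes and could be tested. Of the 10 members 0 passed the test, with limma adjusted p between 0.134 and 0.995, beside 0.584% of all features. At an unadjusted p below 0.05 there were 3 of 10 members, beside 21.8% of all features. These 3 were Tnni3, Myl7 and Myl4, all higher in males. Myl7 averaged 2.87 in males and 2.51 in females, a difference of 0.37 ± 0.15 (limma adjusted p = 0.209). Tnni3 differed by 0.33 ± 0.10 (limma adjusted p = 0.134), although its second probe differed by 0.10 ± 0.11. Actc1 had the most negative value, -0.36 ± 0.22 (limma adjusted p = 0.344). The differences of Myl7 and Myl1 changed sign with the slide as a block, to -0.25 and -0.10.

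To place the members among their partners, 50 further sarcomere genes of the thick filament, the thin filament and the Z-disc were listed. Of these 47 were on the array, 22 passed the filter and 15 were well above background on no array. In males 14 of the 22 were lower in mutants and 8 higher, with a median of -0.26, where 55.3% of all features were lower. In females 13 were lower and 9 higher, with a median of -0.30, where 56.4% of all features were lower. A single gene, Tnnt1, passed the test in each sex, beside 0.469% of all features called in either direction in males and 0.355% in females. At an unadjusted p below 0.05 there were 8 of 22 in males and 5 in females, beside 11.9% and 10.4% of all features.

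Tnnt1 encodes slow skeletal troponin T. It stood at 2.08, 2.25 and 2.21 in mutant males, against 3.05, 2.75 and 2.92 in control males. It stood at 1.74, 1.96 and 1.97 in mutant females, against 2.55, 2.80 and 2.59 in control females. The groups were apart in both sexes, and Tnnt1 fell by 0.72 ± 0.12 in males (limma adjusted p = 0.034) and by 0.76 ± 0.12 in females (limma adjusted p = 0.031). The sign was the same in all 22 alternatives, but the call was near the threshold. It was kept in 7 of 22 in males, with adjusted p between 0.017 and 0.176, and in 10 of 22 in females, with adjusted p between 0.0021 and 0.46. Leaving out any 1 array other than mutant female 1 or control female 3 ended the call in males, and leaving out 1 array kept it in 5 of 12 cases in females.

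In the list of thin filament genes, 9 of 15 were tested and 1 was called, Tnnt1, in each sex, with medians of -0.27 in males and -0.36 in females. An unadjusted p below 0.05 was reached by 4 of the 9 in males and 3 in females. The summed level of the thin filament list was 26.5 to 29.7 in mutant males, against 30.9 to 37.1 in control males. In females it was 23.3 to 29.4 in mutants, against 24.0 to 30.7 in controls. The ranges were apart in males, with mutants lower, and overlapped in females. Tnni2, fast skeletal troponin I, differed by -0.86 ± 0.21 in males (limma adjusted p = 0.16) and by -0.77 ± 0.21 in females (limma adjusted p = 0.27). Nrap, a protein of myofibril assembly, differed by -0.54 ± 0.19 in males (limma adjusted p = 0.35) and by -0.97 ± 0.19 in females (limma adjusted p = 0.091). Neither passed the test. Tnnt3, fast skeletal troponin T, did not pass it either, at -0.82 ± 0.29 in males (limma adjusted p = 0.34) and -0.53 ± 0.29 in females (limma adjusted p = 0.49). Its groups were apart in males and overlapped in females. Skeletal alpha actin, Acta1, differed by 0.03 ± 0.36 in males and 0.23 ± 0.36 in females, with overlapping groups as for Actc1. The tropomyosins Tpm1 and Tpm2, which smooth muscle and other cells also make, differed by -0.19 and 0.02 in males and by 0.01 and 0.14 in females.

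Of the thick filament genes, 7 of 18 were tested and 0 were called in either sex, with 1 at an unadjusted p below 0.05 in males and 0 in females. Their medians were -0.25 in males and -0.32 in females. Mylpf, the regulatory light chain that pairs with Myl1 in fast skeletal muscle, differed by -0.26 ± 0.20 in males and -0.29 ± 0.20 in females, with overlapping groups. Mybpc1, a myosin-binding protein of slow skeletal muscle, differed by -0.82 ± 0.30 in males (limma adjusted p = 0.36) and by -0.12 ± 0.30 in females. Of the 17 thick filament genes on the array, 4 were well above background on all 12 arrays, Myh8, Mylpf, Mybpc1 and Mybpc3, and 6 on no array, among them the embryonic heavy chain Myh3 and titin, Ttn.

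Of the Z-disc genes, 6 of 17 were tested and 0 were called, with 3 at an unadjusted p below 0.05 in males and 2 in females, and the medians were 0.08 in males and 0.04 in females. Myoz1, a calcineurin-binding protein of the Z-disc, differed by -0.59 ± 0.25 in males (limma adjusted p = 0.40) and by -1.02 ± 0.25 in females (limma adjusted p = 0.18). Actn3, the alpha-actinin of fast fibres, and Flnc, a muscle filamin, were higher by 0.80 ± 0.31 and 0.77 ± 0.29 in mutant males, without passing the test (limma adjusted p = 0.38 and 0.37). In females Actn3 differed by 0.47 ± 0.31 and Flnc by 0.52 ± 0.29. Of the 15 Z-disc genes on the array, 3 were well above background on all 12 arrays and 7 on none. Thus the Z-disc genes that could be measured pointed in both directions.

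**Figure D4:**
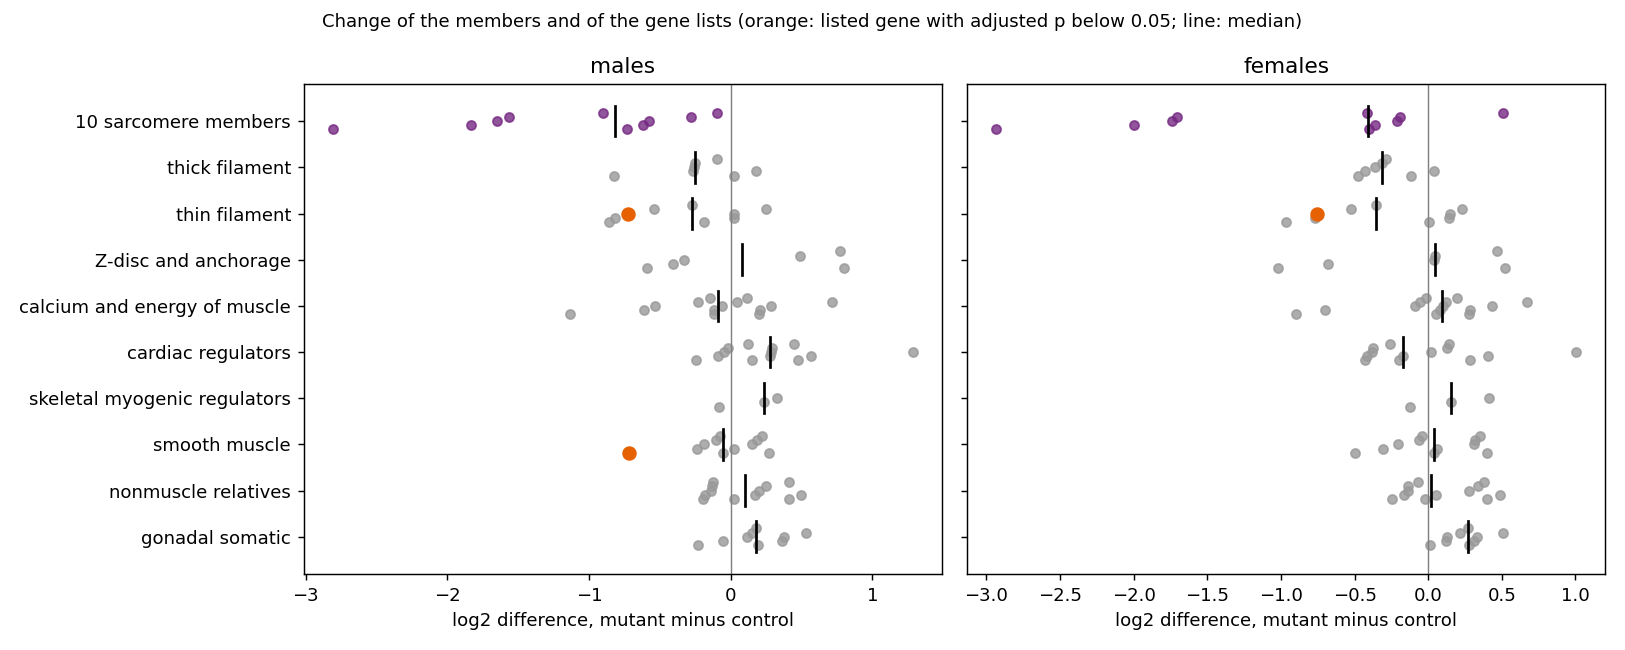
Difference of mutant minus control (horizontal axis, log2) in males and in females for the 10 sarcomere members and for the tested genes of 9 lists (rows), with 1 point per gene and a line at the median; orange points are listed genes with a limma adjusted p below 0.05. The members have medians of -0.82 in males and -0.41 in females, and the only listed genes past the test are Tnnt1 in both sexes and Myl9 in males.

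Genes listed as regulators of heart and skeletal muscle were then read in the same arrays. Of 19 cardiac regulators, 10 were well above background on all 12 arrays, among them Gata4, Gata6, Hand2, Mef2c and Nppa, and 2 on no array, the transcription factors Nkx2-5 and Tbx5. Of 14 skeletal regulators 13 were on the array. The cadherin gene Cdh15 was well above background on all 12 arrays, and 7 were so on none, among them the determination factors Myf5 and Myod1 and the progenitor factors Pax3 and Pax7. Of the skeletal regulators 3 were tested, with 0 called and 0 at an unadjusted p below 0.05 in either sex. The summed level of that list, in multiples of the 75th percentile, was 0.39 to 0.47 in mutant males, against 0.41 to 0.45 in control males. In females it was 0.37 to 0.65 in mutants, against 0.43 to 0.48 in controls. The ranges of mutants and controls overlapped.

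Of the cardiac regulators 13 were tested and 0 were called, with 2 at an unadjusted p below 0.05 in males and 4 in females. Their medians were 0.28 in males and -0.17 in females, and 1 of them, Gata4, is also on the list of gonadal somatic genes. The summed level was 15 to 17.9 in mutant males, against 13.9 to 14.6 in control males. In females it was 16.5 to 22.5 in mutants, against 13.7 to 17.9 in controls. The ranges were apart in males, with mutants higher, and overlapped in females. This sum and that of the gonadal somatic list were both highest in mutant female 2, at 22.5 and 85.7. The part of gonadal cells in the values of this list was not tested. Nppa, the atrial natriuretic peptide, differed by -0.05 ± 0.17 in males and -0.38 ± 0.17 in females (limma adjusted p = 0.87 and 0.48). Gata5, a GATA factor of heart and endoderm, differed by 0.45 ± 0.24 in males (limma adjusted p = 0.435) and by 1.01 ± 0.24 in females (limma adjusted p = 0.17).

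Of 27 genes for calcium handling and energy supply of muscle, 14 were tested and 0 were called, with 3 at an unadjusted p below 0.05 in each sex, and the medians were -0.09 in males and 0.09 in females. Pgam2, the muscle phosphoglycerate mutase, came nearest, at -1.13 ± 0.24 in males (limma adjusted p = 0.082) and -0.89 ± 0.24 in females (limma adjusted p = 0.24). Of the 27 genes, 9 were well above background on all 12 arrays, among them the calcium pumps Atp2a1 and Atp2a2 and the muscle enolase Eno3, and 8 on no array, among them myoglobin and the pump regulators phospholamban and sarcolipin. The calcium release channel of the heart, Ryr2, differed by 0.71 ± 0.27 in males (limma adjusted p = 0.37) and by 0.08 ± 0.27 in females.

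Smooth muscle genes were also examined, since the region around the gonad holds cells that make them. Of 12 listed, 11 were tested, and 1 was called lower in males and 0 in females, with 3 at an unadjusted p below 0.05 in females. Myl9, the regulatory light chain of smooth muscle and nonmuscle cells, stood at 6.84, 6.78 and 6.79 in mutant males, against 7.60, 7.36 and 7.61 in control males. It fell by 0.72 ± 0.12 in males (limma adjusted p = 0.028), and differed by -0.50 ± 0.12 in females (limma adjusted p = 0.16), with groups apart in both sexes. The male call was kept in 11 of 22 alternatives, with adjusted p between 0.0090 and 0.171.

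Smooth muscle actin, Acta2, differed by -0.05 ± 0.12 in males and 0.04 ± 0.12 in females, and Tagln by -0.24 ± 0.33 in males and 0.06 ± 0.33 in females. The summed level of the smooth muscle list was 156.5 to 163.4 in mutant males, against 216.7 to 248.2 in control males. It was 148.8 to 163.0 in mutant females, against 172.3 to 212.6 in control females. The ranges did not overlap in either sex, whereas the medians of the list were -0.05 in males and 0.04 in females. Without Myl9, a sum added after the values were seen, the list came to 45.5 to 48.7 in mutant males, against 44.6 to 53.4 in control males. In females it then came to 39.1 to 51.1 in mutants, against 36.1 to 51.6 in controls, so that without Myl9 the ranges overlapped in both sexes. The part of smooth muscle cells in the values of the members was not tested.

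The nonmuscle relatives, such as the actins Actb and Actg1 and the light chains Myl6 and Myl12a, were well above background on all 12 arrays for 12 of 13 genes. None of the 12 tested passed the test in limma, in either sex, with 3 at an unadjusted p below 0.05 in males and 2 in females, and the medians were 0.10 in males and 0.02 in females. In bulk RNA, fewer cells of a type and less RNA per cell cannot be told apart, and the summed level of the mesonephric epithelium list was 4.82 to 10.7 in mutant males, against 1.67 to 2.82 in control males. In females that list summed to 1.95 to 7.03 in mutants, against 4.07 to 5.13 in controls. Of the mesonephric, endothelial, erythroid, leukocyte and germ cell lists, 0 genes were called in limma in either sex. In males 4 of 8 mesonephric genes had an unadjusted p below 0.05, and all 8 were higher in mutants, with a median of 0.94. So did 1 of 6 erythroid genes in males, and of 3 germ cell genes 1 in males and 2 in females. The other counts were 0. The summed level of the erythroid list differed widely between embryos, from 24.0 in mutant female 2 to 866.5 in control female 1. The part of other cells of the preparation in the values of the members was not tested.

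The chromosomal neighbours of Myl7, Tnni3, Myl1 and Myl3, taken as the nearest pair of genes on each side that the array holds, gave 16 genes of which 12 were tested. A single neighbour passed the test in each sex, and it was Tnnt1, which lies next to Tnni3 on chromosome 7. The neighbours had medians of -0.01 in males and 0.09 in females, and lay between -0.72 and 0.56 in males and between -0.76 and 0.58 in females. Next to Myl7 on chromosome 11, Pold2 differed by 0.09 ± 0.13 in males and 0.26 ± 0.13 in females. Ppp1r12c, beyond Tnnt1, differed by 0.17 ± 0.19 in males and 0.16 ± 0.19 in females. Next to Myl1 on chromosome 1, Acadl differed by -0.17 ± 0.13 in males and -0.31 ± 0.13 in females, and next to Myl3 on chromosome 9, Pth1r differed by 0.56 ± 0.22 in males and 0.32 ± 0.22 in females.

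The neighbours of the other 6 members, other than members themselves, numbered 18, of which 9 were tested and 0 were called in limma in either sex. Mhrt, a noncoding RNA at the locus of the cardiac heavy chains, differed by -0.78 ± 0.32 in males (limma adjusted p = 0.40) and by -1.07 ± 0.32 in females (limma adjusted p = 0.33). Its sign was that of Myh6 and Myh7 in both sexes, and the position of its probe relative to theirs was not checked.

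The profile of Myl7 over the 12 arrays was compared with that of 13211 named genes by the root mean square difference after each profile was centred on its own mean. Among the closest 5 were Pnliprp2, a pancreatic lipase-related gene, at 0.377, Kdm3a at 0.473, Apoc1, an apolipoprotein, at 0.487, and Vav3, a guanine nucleotide exchange factor, at 0.490. Pnliprp2 differed by -2.49 in males and -2.31 in females, and Vav3 by -2.24 in males and -2.10 in females. Of the other members, Myl1 came 7th at 0.512, Myl3 11th at 0.620 and Tnni3 12th at 0.649, whereas Myh6, Myh7 and Tnnt2 came 255th, 299th and 343rd, Tnni1 567th, Myl4 1740th and Actc1 10479th. The measure follows the size of the genotype difference, which chose the members, so these ranks are a description and carry no test.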

How the data were processed

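Expression was measured on 12 one-colour arrays, 1 per embryo, in 4 groups of 3. The deposited values are linear intensities, made per the file headers with Agilent Feature Extraction 10.5.1.1 by subtracting background, without scaling across arrays, on a design built on mm9. From the deposited intensities, log2 values were computed and each array's 75th percentile subtracted, over 43379 spots that are not controls, leaving out outlier spots and averaging spots of a probe (41174 probes). Gene names and promoters came from RefSeq tables of GRCm38.p6. Of several probes of a gene, the one with the highest mean represented it, giving 19178 features. All 12 arrays entered 1 fit of group means in limma 3.58.1 (R 4.3.3), with Benjamini-Hochberg adjustment at 0.05 over all features. The fit was also run on simulated data with independent noise and no slide effect, which leaves the effect of slide untested. The p-values of the fit reflect the spread among embryos and ignore slide.

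The members and the gene lists were chosen with earlier results of these data known. Named were all members, every listed gene past the test and otherwise up to the 2 of each list with the smallest p in each sex, the 5 genes most like Myl7, and the neighbours. Some genes that this rule names are left out of the text. Acta1, Acta2, Tagln, Tnnt3, Tpm1, Tpm2, Mylpf, Nppa, Nr5a1, Wt1, the nonmuscle examples and the genes given as above background on all arrays or on none were named after their values were seen. Alternatives were quantile normalization, normexp (offset 50), other filters, tests of every probe, fits of the groups compared alone, slide or replicate as a block, array brightness as a covariate, array weights, and leaving out each array.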

Additional observations from a re-analysis of the deposited data

How the results depend on the processing

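The differences of Myl7, Tnni3, Myl1 and Myl3 kept their sign under every alternative run: Myl7 lay between -2.85 and -2.58 in males and between -3.00 and -2.55 in females, and with 1 array left out between -2.99 and -2.63 and between -3.12 and -2.76. Counts over all features depended far more on the settings. In males 90 features were called, with 35 without the filter on dim probes, 21 in a fit of only the groups compared, 52 with the slide block, 56 with array brightness as a covariate and 2925 with array weights. In females 68 were called, with 44, 34, 13, 42 and 5783 under the same settings. For the difference between the sexes of the mutant effect, 0 were called (710 at an unadjusted p below 0.05), with 8 under the slide block and 1 with brightness. For sex, 112 were called, with 175 under normexp, 9 under the slide block, 73 under the replicate block, 23 with brightness and 1006 with array weights. The weights gave control female 3 the least, 0.192, and control female 2 the most, 3.02; the cause of the added calls was not tested. With 1 array left out, the calls ranged from 26 to 93 in males, 31 to 128 in females, 0 to 0 for the difference and 43 to 128 for sex. The replicate block gave 64 in males, 48 in females and 0 for the difference; same-numbered samples correlated at -0.11, 0.31 and 0.30 in males and at 0.01, -0.24 and -0.53 in females, and not every sample correlated best with its own number, so the numbers were not taken as pairs. Sex differences of members, none of them called in any alternative, changed sign with the slide block for Myl7 (-0.25), Myl1 (-0.10), Tnnt2 (-0.58) and Tnni1 (-0.14), with brightness for Myl7 (-0.089), Myl1 (-0.23), Myl3 (-0.18), Myh6 (0.40) and Myh7 (0.18), and with array weights for Myh7 (0.071). With 1 array left out, they ranged from -0.119 to 0.114 for Myh6, positive in 5 cases, and from -0.11 to 0.073 for Myh7, positive in 3 cases. Signal near background limits the values of Myh6, and low signal those of the second Myl3 and Myl1 probes.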
